A study of Mus musculus with 11 samples.

Results

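Sfmbt2, Mcm7, Mir17hg, Smc4 and Dleu2 are mouse genes whose primary transcripts carry clusters of microRNA hairpins. They were taken by symbol, and each has 1 row among the 48942 features measured in the Dicer libraries and 1 among the 39889 measured in the cMyc libraries. RNA was measured in mouse embryonic stem cells (ESCs, strain 129S4/SvJae) kept without feeder cells on gelatin. The groups were 2 wild-type libraries (Dcr WT 1 and 2), 3 lines, numbered 1, 3 and 4, without Dicer (Dcr KO), 1 library of cells homozygous for a floxed cMyc allele (cMyc flox) and 1 of cMyc-/- cells (cMyc KO). The sources used here do not give how each allele was deleted, whether a line is 1 clone, or whether the wild-type libraries came from separate cultures, so p-values cover only the spread between samples, which may be technical. All were poly(A)-selected, so the values are of host transcripts, and mature microRNAs were not analysed here.

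A host transcript is cut in the nucleus by Drosha to release hairpins, which Dicer then cuts into mature microRNAs. Introns of Mcm7, a subunit of the replicative helicase, carry the miR-106b~25 cluster, and an intron of Sfmbt2, a Polycomb-associated protein with MBT domains, carries a very large rodent-specific cluster. Introns of Smc4, a condensin subunit, carry miR-15b and miR-16-2, and the noncoding Dleu2 carries miR-15a and miR-16-1. Mir17hg, also noncoding, is the precursor of the miR-17~92 cluster, a known transcriptional target of cMyc. Dicer acts after the host gene is transcribed, so the comparison of Dcr KO with Dcr WT asks how the host transcripts stand in cells that cannot mature the microRNAs, and the cMyc pair asks how they stand without cMyc.

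The mature sequences show which hosts encode the same seed, the stretch of bases 2 to 8 that pairs with targets, printed in capitals. They are given 5′ to 3′ from RefSeq (GRCm38.p6) for the main arm of each microRNA of 4 hosts, first those of Mir17hg.
miR-17-5p: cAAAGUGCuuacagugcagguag
miR-18a-5p: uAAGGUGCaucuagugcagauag
miR-19a-3p: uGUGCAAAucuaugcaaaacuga
miR-20a-5p: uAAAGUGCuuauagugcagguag
miR-19b-3p: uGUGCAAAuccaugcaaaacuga
miR-92a-3p: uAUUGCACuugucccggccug
Those of Mcm7 follow.
miR-106b-5p: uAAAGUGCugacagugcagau
miR-93-5p: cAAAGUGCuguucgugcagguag
miR-25-3p: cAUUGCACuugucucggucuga
Smc4 carries the first of the next sequences, Dleu2 the last, and both carry the one between them.
miR-15b-5p: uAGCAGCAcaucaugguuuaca
miR-16-5p: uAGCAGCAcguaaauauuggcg
miR-15a-5p: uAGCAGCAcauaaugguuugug
Mir17hg and Mcm7 share the seed AAAGUGC, found in 4 of these sequences and in 7 of the 1679 mature mouse microRNAs of the table. They also share AUUGCAC, found in miR-92a-3p and miR-25-3p and in 6 of the 1679. Smc4 and Dleu2 share AGCAGCA, found in all 3 of their sequences and in 10 of the 1679. Sfmbt2 has 72 annotated microRNA entries inside it, of which 71 belong to the Mir466, Mir467, Mir669 and Mir297 families. By chromosome, Sfmbt2 lies on 2, Smc4 on 3, Mcm7 on 5, and Mir17hg and Dleu2 on 14.

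In cells without Dicer the 5 hosts did not move together. Sfmbt2 fell, Mcm7, Smc4 and Dleu2 rose by 1.43 to 1.54 times, and Mir17hg did not pass the test. Thus 4 of 5 were called (limma adjusted p under 0.05), where 31.7% of all 42358 features tested and 45.7% of the 11743 with a mean normalised read count of at least 1000 were. By direction, 3 hosts were higher, against 16.9% of all features and 24.7% of those with a mean of at least 1000, and 1 was lower, against 14.8% and 21.0%. The libraries of the groups did not overlap for 4 hosts, as they did not for 57.4% of all features tested. The median log2 fold change of the hosts was 0.52, beside 0.08 over all features tested. The number of hosts called higher depended on single libraries: it was 0 without Dcr KO line 3 or line 4, 1 without line 1 or Dcr WT 1, 2 without Dcr WT 2, and 1 with total count scaling, while 1 host was lower in each of these fits.

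**Figure D1:**
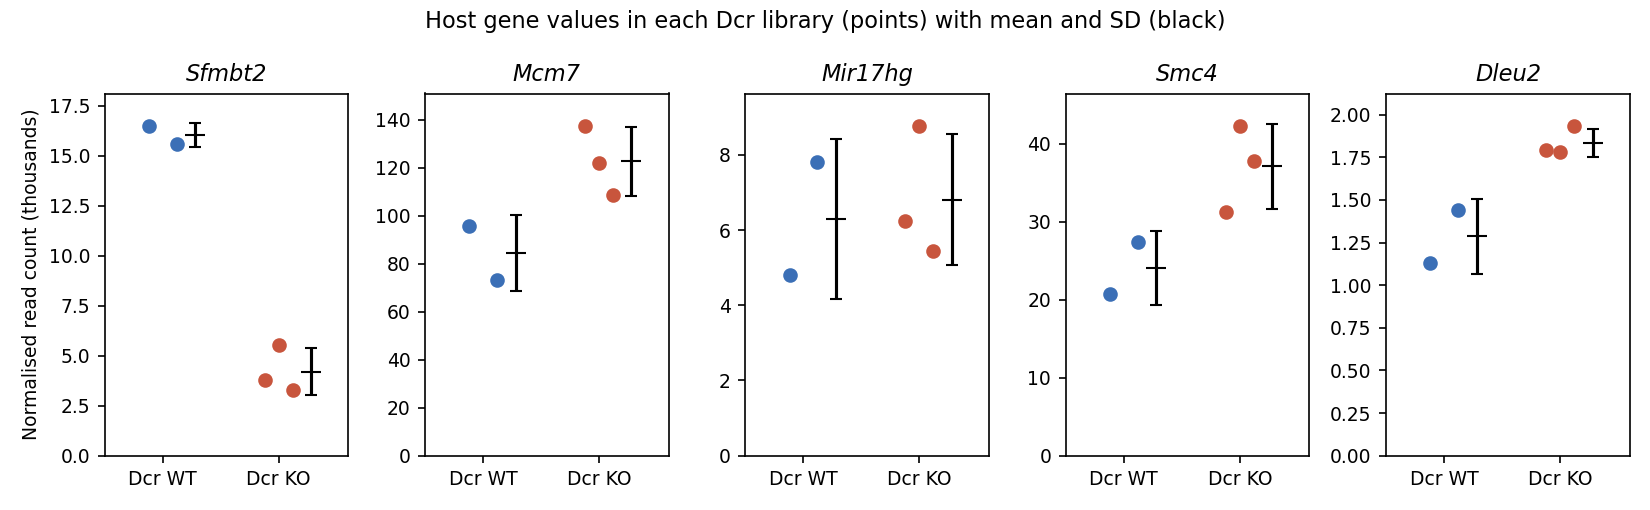
Normalised read counts divided by 1000 (linear axes from 0) of the 5 host genes in the 2 Dcr WT and 3 Dcr KO libraries, 1 point a library, with the mean and SD in black. The groups overlap for Mir17hg and are apart for the other 4 hosts.

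Sfmbt2 had the largest difference of the 5. Its normalised read count was 16470 and 15614 in Dcr WT 1 and 2. In the Dcr KO lines 1, 3 and 4 it was 3797, 5536 and 3268. Every knockout line was thus under both wild-type libraries. The group means were 16042 ± 605.5 (SD, n = 2) and 4200 ± 1187 (SD, n = 3), 3.82-fold lower in Dcr KO (log2 fold change −1.97 ± 0.21 SE, limma adjusted p = 0.00023, 95% interval −2.45 to −1.49). Of the 11743 features with a mean of at least 1000, 1.07% had a lower log2 fold change. Sfmbt2 was called in all 15 alternative fits, and its log2 fold change stayed between −2.19 and −1.81 with each library left out in turn.

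Sfmbt1, the paralog of Sfmbt2, moved the other way. It stood at 4609 and 3698 in Dcr WT and at 5854, 5756 and 6094 in Dcr KO, so the groups did not overlap (log2 fold change 0.51, limma adjusted p = 0.0298). That call was lost without Dcr KO line 1 (adjusted p = 0.0860), line 3 (0.0997), line 4 (0.0869) or Dcr WT 2 (0.119), and with total count scaling (0.0522). The ratio of Sfmbt2 to Sfmbt1 within a library, which no scaling factor changes, was 3.57 and 4.22 in Dcr WT and 0.649, 0.962 and 0.536 in Dcr KO. Sfmbt2 thus held the larger count of the pair in both wild-type libraries and the smaller count in all 3 knockout lines; transcript lengths were not used, so this is not a ranking of the genes' expression. The difference in log2 ratio was −2.48 (two-sided exact permutation p = 0.1, the smallest that 2 against 3 libraries allow).

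Of 10 tested genes for MBT-domain proteins and their partners, besides Sfmbt2, 3 rose and 1 fell, with a median log2 fold change of 0.20. Over all features tested, 16.9% rose and 14.8% fell, and over those with a mean of at least 1000, 24.7% and 21.0%. Without Dcr KO line 3, 1 of the 10 rose and 0 fell. L3mbtl3, an MBT-domain reader of methylated lysine, rose (0.85, limma adjusted p = 0.00645). Phf19, a Polycomb-like subunit of PRC2, also rose (0.67, adjusted p = 0.00791), a call lost without Dcr KO line 3 (0.0512). L3mbtl1 was lower at small counts, 217.3 and 185.3 in Dcr WT and 60.3, 106.9 and 114.8 in Dcr KO (−1.14, adjusted p = 0.0349), and its call was lost without any 1 knockout line (0.0565 to 0.0914), without Dcr WT 1 (0.0691) and with size factors from mRNAs alone (0.0512). Yy1, the DNA-binding partner of the family in the Pho repressive complex, had a log2 fold change of 0.12 (adjusted p = 0.573).

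Sfmbt2 is an imprinted gene known for its expression in extraembryonic tissue, so markers of such cells were read beside it. Of 7 endoderm markers tested, 5 were lower in Dcr KO and 0 higher, beside 14.8% and 16.9% of all features tested. The number lower was 3 without Dcr KO line 1 or line 4, and 4 without line 3. The median log2 fold change of the 7 was −1.26 without Dcr WT 1 and −1.95 without Dcr WT 2. Among the lower ones were Hnf4a (log2 fold change −3.82, limma adjusted p = 0.000668), Amn (−2.11, adjusted p = 0.000168) and Sox7 (−1.64, adjusted p = 0.00983). With each library left out in turn, these 3 stayed at or under −3.55, −1.91 and −1.25. Gata6 was lower too (−2.01, adjusted p = 0.0234), a call lost without Dcr KO line 1 (0.0895) or line 4 (0.0566). Cubn, at 2573 in Dcr WT 1 and 416.3 in Dcr WT 2, had −0.69 without Dcr WT 1 and −3.31 without Dcr WT 2. Its call was lost without Dcr KO line 1 (0.119), line 3 (0.0760) or line 4 (0.15). The sum of all 8 listed was 6918 and 3824 in Dcr WT and 2489 to 2985 in Dcr KO. Of 6 trophoblast markers tested, 2 were higher and 1 lower (0 lower without Dcr KO line 4), beside 16.9% and 14.8% of all features tested. Their median log2 fold change was −0.21, and −0.74 and 0.49 without Dcr WT 1 and 2. The sum of the 8 trophoblast markers was 3838 and 5295 in Dcr WT and 3198 to 6339 in Dcr KO. Afp and Tpbpa were at 0 in all 5 libraries. The part of such cells in the Sfmbt2 result was not tested, and in bulk RNA fewer cells of a type and less RNA per cell cannot be told apart.

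Mcm7 rose while the rest of its complex did not. Mcm7 is 1 of the 6 subunits of the MCM ring, which is loaded at replication origins and unwinds DNA. It stood at 95773 and 73304 in Dcr WT 1 and 2, and at 137295, 122140 and 108611 in Dcr KO lines 1, 3 and 4. All 3 lines were above both wild-type libraries, by 1.45-fold in the means (log2 fold change 0.54 ± 0.17 SE, limma adjusted p = 0.0344, 95% interval 0.17 to 0.92). The call was lost without Dcr KO line 1 (adjusted p = 0.132), line 3 (0.129), line 4 (0.0525) or Dcr WT 2 (0.122), with log2 fold changes of 0.35 to 0.74 over all 5 such fits.

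Of the other 5 ring subunits, 0 rose and 2 fell, with log2 fold changes from −0.60 to 0.08. Over features with a mean of at least 1000, 24.7% were called higher and 21.0% lower. Over all features tested the shares were 16.9% and 14.8%. Mcm5 stood at 136416 and 127326 in Dcr WT and at 97706, 90282 and 74227 in Dcr KO (−0.60, limma adjusted p = 0.0170). Mcm4 stood at 109360 and 82500 in Dcr WT and at 68031, 68700 and 61938 in Dcr KO (−0.52, adjusted p = 0.0316). For both, every knockout line was under both wild-type libraries. The Mcm5 call was lost without Dcr KO line 3 (0.0760) or line 4 (0.0540), and that of Mcm4 without line 1 (0.0924), line 3 (0.109), line 4 (0.103) or Dcr WT 1 (0.129). Mcm2 (−0.27, adjusted p = 0.221), Mcm6 (−0.33, adjusted p = 0.151) and Mcm3 (0.08, adjusted p = 0.715) did not pass, although with total count scaling Mcm2 (0.0293) and Mcm6 (0.0250) passed as lower, and so did Mcm6 without Dcr WT 2 (0.0170).

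Set against the geometric mean of Mcm2 to Mcm6 in the same library, Mcm7 stood at 0.735 and 0.681 in Dcr WT and at 1.34, 1.27 and 1.28 in Dcr KO. The libraries of each group lay close together and the groups were apart, with a difference in log2 ratio of 0.87 (two-sided exact permutation p = 0.1, the smallest possible). This ratio and those for Sfmbt2 and Smc4 were chosen after the values were seen.

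**Figure D2:**
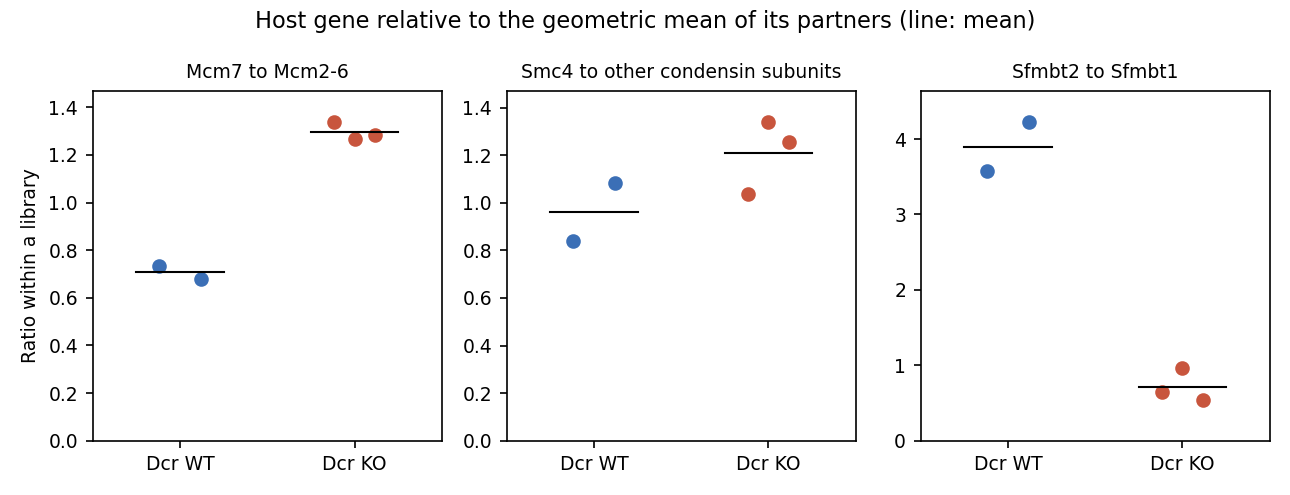
Ratio within each library (linear axes from 0) of Mcm7 to the geometric mean of Mcm2 to Mcm6, of Smc4 to that of 6 other condensin subunits, and of Sfmbt2 to Sfmbt1, 1 point a library and lines at the group means. The groups are apart for Mcm7 (0.681 and 0.735 against 1.27 to 1.34) and Sfmbt2, and overlap for Smc4.

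Of 22 other origin licensing and helicase genes tested, 1 rose and 8 fell, with a median log2 fold change of −0.30, where 24.7% and 21.0% of features with a mean of at least 1000 were called higher and lower. The number lower ranged from 3 without Dcr KO line 3 to 11 without Dcr WT 2 and with total count scaling. Gins2, a subunit of the GINS part of the active helicase, fell (−0.96, limma adjusted p = 0.00329), as did Mcm8, an MCM paralog outside the ring (−0.76, adjusted p = 0.00313). The origin recognition genes Orc6 (−0.75, adjusted p = 0.00354) and Orc1 (−0.67, adjusted p = 0.00813) fell too, that of Orc1 being lost without Dcr KO line 3 (0.0515). The 1 member that rose was Mcm9, the partner of Mcm8 (0.55, adjusted p = 0.0355), which was named after its value was seen. Its call was lost without Dcr WT 2 (0.164) or Dcr KO line 1 (0.0828), line 3 (0.129) or line 4 (0.105), and with total count scaling (0.0615).

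Smc4 rose together with its direct partner. Smc4 and Smc2 form the ATPase core of condensin, the complex that compacts mitotic chromosomes. Smc4 stood at 20741 and 27432 in Dcr WT 1 and 2, and at 31291, 42239 and 37785 in Dcr KO lines 1, 3 and 4. The lowest knockout line was above the higher wild-type library, and the means differed 1.54-fold (log2 fold change 0.63 ± 0.18 SE, limma adjusted p = 0.0250, 95% interval 0.23 to 1.03). The call was lost without Dcr WT 1 (0.0765) or Dcr KO line 3 (adjusted p = 0.123) or line 4 (0.0897), and with total count scaling (0.0600).

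Smc2 stood at 18601 and 27252 in Dcr WT and at 32400, 40526 and 37009 in Dcr KO (0.70, limma adjusted p = 0.0188). As for Smc4, Dcr WT 1 and Dcr KO line 1 were the low libraries of their groups and line 3 the highest. Ncaph, the kleisin subunit of condensin I, stood at 26766 and 19684 in Dcr WT and at 40188, 36310 and 33597 in Dcr KO (0.67, adjusted p = 0.0139), with Dcr WT 1 and line 1 the high libraries of their groups. The Smc2 call was lost without Dcr KO line 1 (0.0515), line 3 (0.0966), line 4 (0.0745) or Dcr WT 1 (0.0635), and that of Ncaph without line 1 (0.0737) or line 3 (0.0663).

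Other condensin subunits, Ncapd2 (−0.02), Ncapd3 (−0.10), Ncapg (0.16) and Ncapg2 (0.36), did not pass, with limma adjusted p of 0.914, 0.605, 0.439 and 0.101, although Ncapg2 passed without Dcr WT 2 (0.0345). Relative to the geometric mean of the 6 measured subunits other than itself, Smc4 stood at 0.842 and 1.08 in Dcr WT and at 1.04, 1.34 and 1.26 in Dcr KO, which overlapped (difference in log2 ratio 0.33, two-sided exact permutation p = 0.3). Unlike Mcm7 in its ring, Smc4 was thus not set apart from its complex beyond the spread of libraries; the difference between the hosts in this respect was not tested.

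Genes of the other SMC complexes showed the same direction. Of 11 tested genes of condensin, cohesin and related complexes, without Smc4, 5 rose and 0 fell, with a median log2 fold change of 0.41. Over features with a mean of at least 1000, 24.7% and 21.0% were called higher and lower, and over all features tested 16.9% and 14.8%. The number of the 11 called higher was 1 without Dcr KO line 3 and 3 without line 1 or line 4. Smc1a (0.71, limma adjusted p = 0.00445) and Smc3 (0.69, adjusted p = 0.0124), the SMC pair of cohesin, and Smchd1, an SMC-hinge protein of X inactivation (0.67, adjusted p = 0.00692), rose. The calls of Smc3 and Smchd1 were lost without Dcr KO line 3 (0.0757 and 0.0523), and that of Smc3 without line 4 (0.0549).

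Change also moved with gene span over all mRNAs. Split into 4 equal groups by annotated span, after values were seen, mRNAs had median log2 fold changes of −0.32, −0.19, 0.03 and 0.24 from the shortest to the longest group. Mcm7 lies in the shortest group (4022 mRNAs) and Smc4 in the third (4021), and each stood above the median of its group. Sfmbt2 lies in the longest group and stood far under its median. The part of gene span in these results was not tested.

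**Figure D3:**
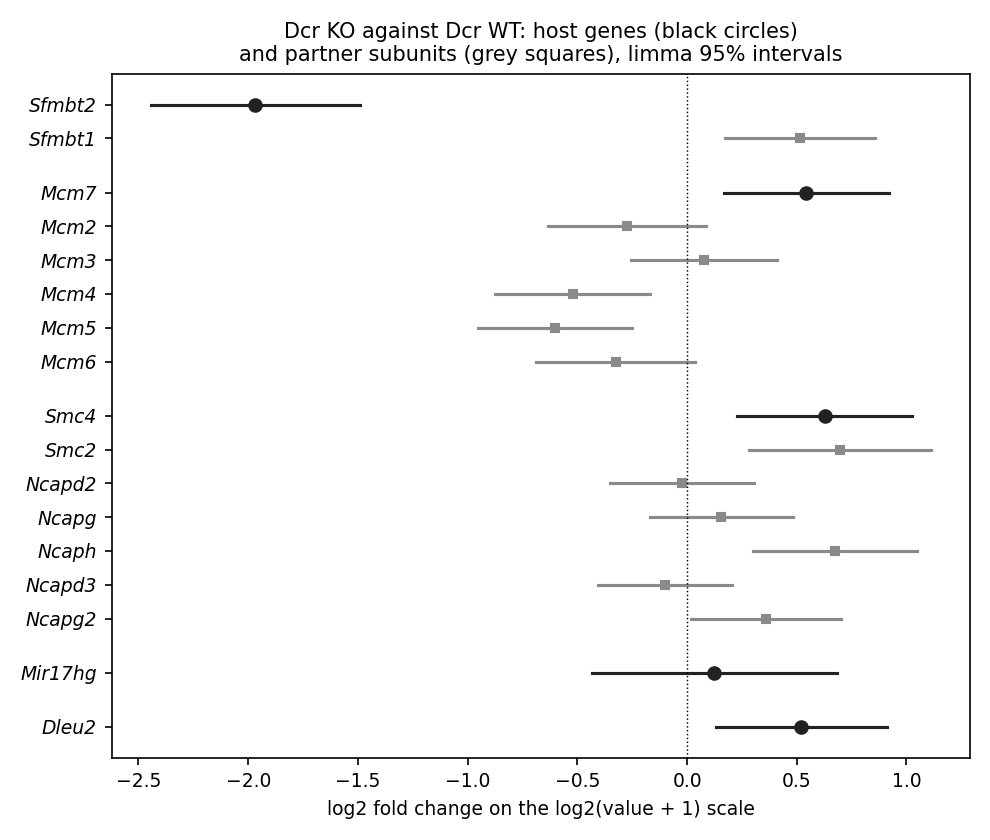
Log2 fold change of Dcr KO against Dcr WT on the log2(value + 1) scale for the 5 hosts (black circles) and their partners (grey squares), with limma 95% intervals. Mcm7 lies above 0 while Mcm4 and Mcm5 lie below it, and Smc4, Smc2 and Ncaph lie above 0 together.

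Mir17hg showed no difference beyond the spread of libraries. It stood at 4798 and 7809 in Dcr WT 1 and 2, and at 6231, 8757 and 5432 in Dcr KO lines 1, 3 and 4. The groups overlapped, since Dcr WT 2 was above lines 1 and 4. The log2 fold change was 0.12 ± 0.25 SE (limma adjusted p = 0.733), and its 95% interval ran from −0.43 to 0.68, so changes of that size in either direction are compatible with these libraries. Leaving out Dcr WT 1 gave −0.23 and leaving out Dcr KO line 3 gave −0.07. In the GRCm38.p6 annotation 5 of the 6 hairpins start before the annotated start of Mir17hg, so a row counted over that model covers mainly the RNA downstream of the cluster. Myc fell in the same libraries (log2 fold change −3.44, limma adjusted p = 0.000289), and so did Mycl (−1.27, adjusted p = 0.00524). Mycl stood at 6474 and 6066 in Dcr WT and at 3469, 2858 and 1771 in Dcr KO. Mycn did not pass (0.13, adjusted p = 0.540). The E2F gene E2f3 rose (0.66, adjusted p = 0.00821), a call lost without Dcr KO line 3 (0.0542), and E2f1 stood at 0.01 (adjusted p = 0.955).

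Dleu2 was the host with the lowest counts. It stood at 1133 and 1441 in Dcr WT 1 and 2, and at 1793, 1781 and 1931 in Dcr KO lines 1, 3 and 4, from 563 to 2524 reads a library. The 3 lines lay close together and above both wild-type libraries, by 1.43-fold in the means (log2 fold change 0.52 ± 0.17 SE, limma adjusted p = 0.0461, 95% interval 0.13 to 0.91). This call lay at the threshold. It was lost without Dcr KO line 1 (adjusted p = 0.106), line 3 (0.125), line 4 (0.122) or Dcr WT 1 (0.187), with total count (0.123) or TMM scaling (0.0625), and with edgeR on the recovered reads (0.0620).

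Trim13, a ubiquitin ligase gene whose annotated span overlaps the end of Dleu2, moved the other way. It stood at 8918 and 9859 in Dcr WT and at 6008, 5383 and 4979 in Dcr KO (log2 fold change −0.79, limma adjusted p = 0.00406). Kcnrg, which also overlaps Dleu2, stood at 0.09 (adjusted p = 0.841). The sources used here do not say whether reads were counted by strand. The values of Dleu2, Trim13 and Kcnrg are therefore uncertain where they overlap, as are those of Mcm7 and Ap4m1.

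Of the 20 nearest annotated neighbours of the 5 hosts, 10 had a row and 9 were tested. Of these 1 rose and 1 fell, beside 16.9% and 14.8% of all features tested. The gene that rose was Ift80, an intraflagellar transport gene beside Smc4, at 2265 and 3053 in Dcr WT and 5072, 5942 and 6017 in Dcr KO (1.11, limma adjusted p = 0.00167). On the other side of Smc4, Trim59 stood at −0.32 (adjusted p = 0.153). Around Mcm7, Ap4m1 stood at 0.45 (adjusted p = 0.0514), Zfp113 at 0.32 (0.137), Cops6 at 0.05 (0.793) and Taf6 at −0.32 (0.255). The neighbours of Smc4 thus lay on both sides of 0, and those of Mcm7 gave no call.

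In the cMyc pair, with 1 library a group and so no test, 4 of 5 hosts had lower values in the cMyc KO library and Mcm7 had a higher one. Ratios are given with 95% exact intervals for counting error only. The label check was clear, as Myc had 446 reads in cMyc flox and 12 in cMyc KO, a ratio of 0.0231. Of the 5 hosts, 3 had a ratio below 1/1.5 and 0 above 1.5, where 5.12% and 4.18% of 13423 features with at least 100 reads did.

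Smc4 went from 2814 to 1609 (2670 and 1776 reads), a ratio of 0.572 (0.538 to 0.608). Sfmbt2 went from 2307 to 1422 (2189 and 1569 reads), a ratio of 0.616 (0.577 to 0.658). Dleu2 went from 116 to 62.5, which rests on 110 and 69 reads, and its ratio of 0.539 had the widest interval (0.393 to 0.735). Both noncoding hosts lay below 1, since Mir17hg went from 460.6 to 309.9 (437 and 342 reads), a ratio of 0.673 (0.582 to 0.777). Mcm7 went from 8713 to 10481 (8267 and 11567 reads), a ratio of 1.20 (1.17 to 1.24). Counting intervals of the 4 lower hosts overlapped with those of their neighbours in this order, so their order among themselves is not resolved, and Mcm7 stood apart from all 4.

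The ring subunits moved in step with Mcm7 here. The other 5 had ratios of 1.08 to 1.30, and Mcm7 relative to their geometric mean stood at 1.13 in both libraries. Sfmbt1 had a ratio of 0.906 (0.790 to 1.04), and Sfmbt2 relative to it went from 5.37 to 3.65. Smc4 relative to the other condensin subunits went from 1.27 to 0.872, while those subunits ranged from 0.623 for Smc2 to 1.12 for Ncapd2. Of the 11 genes of SMC complexes, 10 had a ratio below 1 and 4 below 1/1.5, against 1 and 0 of 11 above. Of the 13423 features, 5.12% lay below 1/1.5 and 4.18% above 1.5. The median log2 ratio of the 11 was −0.53, beside 0.09 over the 13423 features. The 4 below 1/1.5 were Smc5 (0.575), Smc3 (0.618), Smc2 (0.623) and Smc6 (0.633), named after their values were seen.

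**Figure D4:**
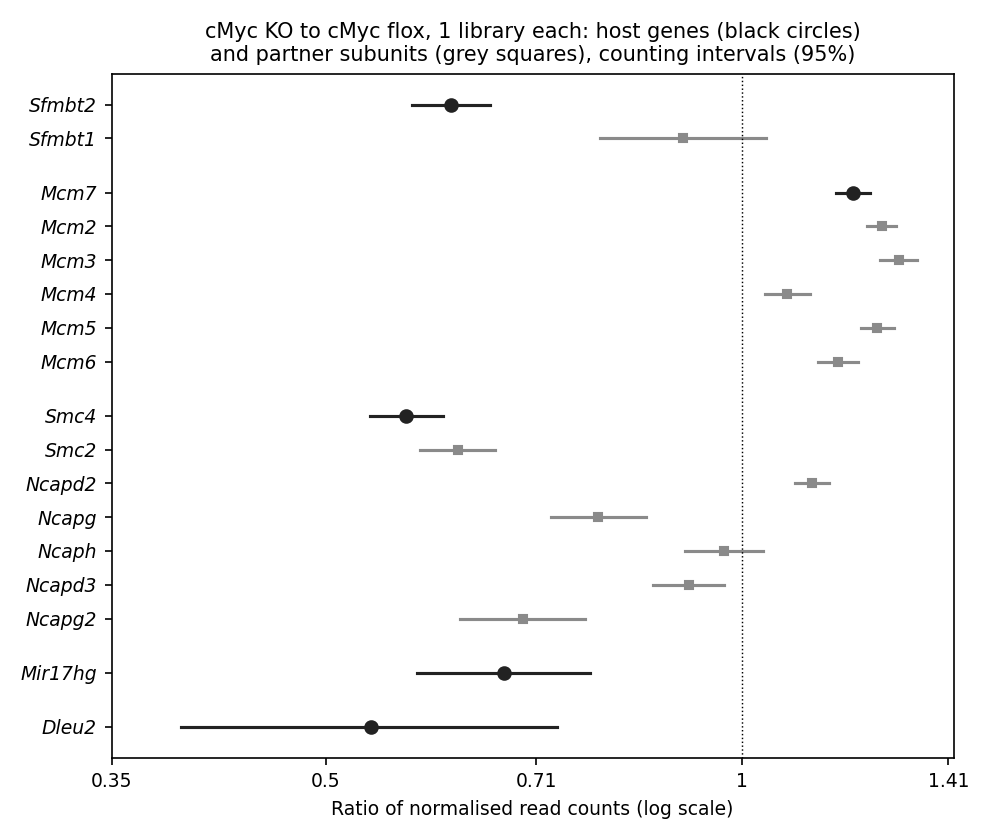
Ratio of normalised read counts, cMyc KO to cMyc flox (log scale), for the 5 hosts (black circles) and their partners (grey squares), with 95% exact intervals for counting error in 1 library a group. Mcm7 and the other ring subunits lie above 1, and Smc4, Sfmbt2, Mir17hg and Dleu2 lie below it.

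Smc4 and Dleu2 thus stood higher in Dcr KO and lower in the cMyc KO library, Sfmbt2 stood lower in both, and Mcm7 higher in both. The tables were normalised separately and share no library, and the difference between them was not tested. Genes with the largest ratios among all listed genes with at least 100 reads were, besides Myc, Dleu2 and Chm (0.569, host of miR-361) at the low end and the fibroblast markers Acta2 (1.63), Col1a2 (1.65) and Col1a1 (1.90) at the high end. Ribosomal RNA took 28.1% and 30.0% of the reads of these libraries. By gene span, median log2 ratios were 0.20, 0.14, 0.07 and 0.04 from the shortest to the longest group of mRNAs with at least 100 reads, and 1.5% to 5.28% of each group lay below 1/1.5.

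Host genes of other microRNAs did not share 1 direction in Dcr KO. Of 47 tested, 16 rose and 10 fell, beside 16.9% and 14.8% of all features tested. Without Dcr KO line 3 it was 7 and 4, and without line 4 it was 9 and 4. The median log2 fold change was −0.20, but 0.05 with edgeR, 0.04 with DESeq2 and 0.01 without Dcr WT 1. The 4 called with the largest changes had low counts. Arpp21 (host of miR-128-2) stood at 0 and 7.30 in Dcr WT and 24.0, 40.5 and 29.1 in Dcr KO (3.45, limma adjusted p = 0.0169), and Trpm3 (host of miR-204) at 8.05 and 21.0 against 71.9, 77.9 and 51.3 (2.25, adjusted p = 0.00994). Trpm1 (host of miR-211) stood at 509.0 and 173.4 in Dcr WT against 54.1, 45.1 and 49.0 (−2.57, limma adjusted p = 0.00259). Dnm3 stood at 32.2 and 49.3 against 13.3, 4.58 and 8.42 (−2.17, limma adjusted p = 0.0265). Dnm3 was listed for miR-199a-2, which lies within its locus on the opposite strand, so its mRNA is not the host transcript.

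The groups did not overlap for these 4 genes. The Arpp21 call was lost without any 1 knockout line (adjusted p of 0.0673 to 0.0785), with log2 fold changes of 1.92 without Dcr WT 1, 4.98 without Dcr WT 2 and 1.63 with a pseudocount of 10. Trpm3 was lost without Dcr KO line 1 (0.0577) or line 3 (0.0563), and had 1.61 and 2.89 without Dcr WT 1 and 2. Dnm3 was lost without line 3 (0.0874), line 4 (0.0685) or Dcr WT 2 (0.102). Trpm1 had −1.80 and −3.34 without Dcr WT 1 and 2, and was called in both fits.

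Known targets of the seeds that Mir17hg and Mcm7 share included more genes that rose than fell in Dcr KO. Of 15 tested, 8 rose and 1 fell, where 16.9% and 14.8% of all features tested were called higher and lower. Among features with a mean of at least 1000 these shares were 24.7% and 21.0%. The median log2 fold change of the 15 was 0.57, and 6 to 9 rose over the alternative fits. The Hippo kinase gene Lats2 stood at 2595 and 2342 in Dcr WT and at 17217, 17533 and 17178 in Dcr KO (2.81, limma adjusted p = 1.15e-05). Tgfbr2, a TGF-beta receptor gene, rose from 265.6 and 439.1 to 1728, 2133 and 1565 (2.39, adjusted p = 0.000187), and Zbtb4, a repressor that binds methylated DNA, rose by 1.75 (adjusted p = 0.000192). Cdkn1c, the cell cycle inhibitor p57, fell from 5991 and 5632 to 2200, 1508 and 1001 (−1.96, adjusted p = 0.00100). In the cMyc pair 0 of the 15 passed 1.5-fold in either direction. Of the 13423 features with at least 100 reads there, 4.18% lay above 1.5 and 5.12% below 1/1.5.

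Known targets of the seed that Smc4 and Dleu2 share were mixed. Of 11 tested, 3 rose and 2 fell, with a median of 0.04, beside 16.9% and 14.8% of all features tested. Among features with a mean of at least 1000 these shares were 24.7% and 21.0%. Without Dcr KO line 1 or line 3, 1 of the 11 rose and 1 fell. The cyclin gene Ccnd2 rose from 5420 and 3935 in Dcr WT to 45957, 41502 and 30554 in Dcr KO (3.07, limma adjusted p = 2.88e-05), and Ccne1 fell (−0.93, adjusted p = 0.00439). Ccnd1 rose (0.58, adjusted p = 0.0359), a call lost without Dcr WT 2 (0.0911) or Dcr KO line 1 (0.137) or line 3 (0.137). Vegfa fell (−0.71, adjusted p = 0.0385), a call lost without line 1 (0.0537), line 3 (0.111), line 4 (0.136) or Dcr WT 1 (0.141) and with upper quartile scaling (0.0551). Both target lists were drawn from general knowledge with results of these data known, and other microRNAs share these seeds.

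The genes with the most similar profile over the 5 Dcr libraries were taken from 13340 rows with a mean of at least 100, by the root mean square difference of centred log2 values. Nearest to Smc4 were Dmxl1 (0.0268), Nipbl (0.0418) and Ppig (0.0428). In the cMyc pair the ratios of these 3 genes were 0.610, 0.587 and 0.588, beside 0.572 for Smc4. Nearest to Mcm7 were Tent4a (0.0185), Tmem214 (0.0231) and Grik4 (0.0248), and to Dleu2 Gprc5c (0.0240) and Gtpbp2 (0.0263). Sfmbt2 and Mir17hg had less close matches, Cyp2j13 (0.130), Pcp4l1 (0.142) and Msh4 (0.149) for the first and Bglap (0.101), Zfp931 (0.105) and Pdzrn3 (0.112) for the second. These profiles rest on 5 libraries and are a description.

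Upstream sequence was read for Sfmbt2, Mcm7 and Dleu2, as the cMyc pair bears on E-boxes, the CACGTG motif that Myc proteins can bind. The window at the annotated start of Mir17hg lies among its hairpins, not upstream of the cluster, and was set aside. Dleu2 held CACGTG in the 250 bases before its annotated start, once, 178 bases before it, and 6.02% of 32851 such windows hold it. No match was in those of Sfmbt2 and Mcm7, which says only that these letters are not in these windows. Those bases, chr14:61682374-61682623 of GRCm38.p6, minus strand, from RefSeq, are shown with the motif in capitals.
Dleu2 upstream: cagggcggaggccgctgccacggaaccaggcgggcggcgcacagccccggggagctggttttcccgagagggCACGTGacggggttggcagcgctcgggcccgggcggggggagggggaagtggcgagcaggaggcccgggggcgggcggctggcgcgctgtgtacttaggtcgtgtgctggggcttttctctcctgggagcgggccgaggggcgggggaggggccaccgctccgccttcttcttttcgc
The E2F-like motifs TTTCGCGC and TTTGGCGC, searched on both strands, were in 0 of these 3 windows and in 0.654% of all windows. A match is a description of these letters, not of binding.

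The libraries differed in other ways beside these results. Depth was 101815723 to 278006158 recovered reads in the Dcr libraries, lowest in Dcr WT 1, and 24660365 and 31633011 in the cMyc pair. Dicer1 stood at 20132 and 18792 in Dcr WT and 7743 to 9793 in Dcr KO (−1.17, limma adjusted p = 0.000556). Of 8 ESC markers 1 rose (Fgf4) and 1 fell (Tdgf1), beside 16.9% and 14.8% of all features tested. Neither was called without Dcr KO line 1 or line 3, and Tdgf1 was also not called without line 4. The log2 fold change of Tdgf1 was −0.86, and −0.51 without Dcr WT 1. The sum of the 8 was 834069 to 937810 in Dcr WT and 889634 to 1034340 in Dcr KO. Of 7 fibroblast markers tested 5 fell and 1 rose (0 rose without Dcr KO line 1 or line 3), beside 14.8% and 16.9% of all features tested. The sum of the 8 fibroblast markers listed was 29315 and 41644 in Dcr WT and 2107 to 6003 in Dcr KO. In cMyc flox and cMyc KO it was 8891 and 12189. The part of fibroblast-like RNA in the host results was not tested.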

How the data were processed

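Of 11 samples, 7 are RNA libraries, and the 4 chromatin libraries were not analysed here. The values are a normalised signal, which the authors deposited as read counts divided by 1 factor per library. All values (100% within 0.01 read) were whole multiples of 1 read. TopHat, Bowtie, DESeq and mm9 are named, without role, per the submitters' processing notes. The sources used here do not give the gene models, filters or strand use.

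Dcr KO was compared with Dcr WT by limma 3.58.1 (R 4.3.3, trend) on log2(value + 1), a scale that understates the change of low genes. The 42358 features that reached a value of 1 in 2 libraries were tested, and those with a Benjamini-Hochberg adjusted p under 0.05 were called. On simulated data 4% of 50 genes changed 1.5-fold, 68% of 75 changed 2-fold and 100% of 75 changed 4-fold were called. The simulation changed only 200 of the 42358 features, while 31.7% were called in the real data. With fewer changed features the adjustment asks for smaller p-values, so these rates do not carry over to the real comparison. The tried alternatives were other scalings, pseudocounts (0.5 and 10) and filters, edgeR 4.0.16, DESeq2 1.42.0 and leaving out each library. Symbols come from RefSeq (GRCm38.p6; 20183 of 20559 identifiers matched in the Dcr table, 16839 of 17123 in the cMyc table), whose coordinates are not mm9. Named genes were the hosts, their complexes, the 2 nearest neighbours on each side, the 4 called members of each list with the largest change, the 3 listed genes with the largest cMyc ratio in each direction and the 3 nearest profiles, of which 1 is not reported here. The hosts and lists were chosen with earlier results of these data known.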

Additional observations from a re-analysis of the deposited data

How the results depend on the processing

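Sfmbt2 remained lower and past the threshold in all 15 alternative fits, with log2 fold changes of −2.19 to −1.81 when each library was left out. With each library left out in turn, log2 fold changes ranged from 0.35 to 0.74 for Mcm7, 0.42 to 0.83 for Smc4, 0.35 to 0.69 for Dleu2 and −0.23 to 0.47 for Mir17hg, which was reversed without Dcr KO line 3 (−0.07) and without Dcr WT 1 (−0.23). The fits with 4 libraries called 3782 to 8022 features higher and 3847 to 5935 lower, against 7171 and 6273 with 5; the number higher was above 7171 without either wild-type library (7545 and 8022) and below it without any 1 knockout line. Total count scaling gave 0.55 for Smc4 and 0.44 for Dleu2, TMM scaling 0.49 and edgeR 0.52 for Dleu2, and these 4 values were not past the threshold. The median of all features, 0.08, was −0.00081 with total count, 0.04 with TMM and 0.15 with upper quartile scaling. In the cMyc pair, total counts without ribosomal RNA gave ratios of 0.573 for Sfmbt2, 1.12 for Mcm7 and 0.532 for Smc4, median ratios over mRNAs alone gave 0.573, 1.12 and 0.532, and TMM factors gave 1.16 for Mcm7. No paired analysis was possible because the Dcr groups share only replicate number 1 and the numbers name lines in one group and libraries in the other. The causes of these changes were not tested. With 2 wild-type libraries a missed threshold shows no equality, and the cMyc ratios have no replicate.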

Other observations

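Rows of 2 other microRNA clusters that share these seeds or a shifted form of them were read after their values were seen. The row Mir290a belongs to the ESC-specific miR-290 cluster. It stood at 2806 and 4853 in Dcr WT and at 7569, 9513 and 9831 in Dcr KO. Every knockout line was above both wild-type libraries (log2 fold change 1.27, limma adjusted p = 0.00330). The log2 fold change was 0.88 to 1.67 with each library left out, and the row was called in each fit that left out a knockout line. The sources used here do not say whether this row covers a hairpin or a longer primary transcript. The row Mir18b, of the miR-106a~363 cluster, a paralog of miR-17~92, stood at 420.5 and 1111 in Dcr WT and at 305.2, 293.3 and 234.9 in Dcr KO (−1.31, adjusted p = 0.0241). The Mir18b call was lost without Dcr WT 2 (0.114) or Dcr KO line 1 (0.0869), line 3 (0.0702) or line 4 (0.107), and the fit that left out Dcr WT 1 gave −2.0. In the cMyc pair their ratios were 1.14 (0.999 to 1.29) and 1.15 (0.818 to 1.63). A mature product of the miR-290 cluster shows the shifted seed in capitals, which in miR-17-5p begins at base 3.
miR-294-3p: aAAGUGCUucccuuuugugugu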
